A study of Homo sapiens with 6 samples.

Results

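The genes of translation initiation and elongation factors were followed across their splicing events and their junction-read levels in SKNBE2 cells with and without DFMO. A gene was taken when its symbol began with EIF or EEF and a digit, and the EIF4A and EIF5A genes were left out. An event was taken when the deposited quality text scored its coverage as LOW, OK or SOK and gave it at least 10 reads in each of the 6 libraries. The rule chose 2168 events in 56 genes, of 304901 events in 10140 genes that met the same coverage rule. The chosen events were 525 exons, 577 introns, 650 acceptor forms and 416 donor forms. Of 64 genes with such a symbol, 8 had no event under the rule, among them EIF3CL, EIF4E1B and EIF2C3, an older symbol of an Argonaute gene. The antisense RNA EIF3J-AS1 matched the rule by its name. The strand setting of the counting is not given in the sources used here; thus its reads and those of EIF3J cannot be told apart.

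SKNBE2 is a human neuroblastoma line, and the labels give amplified MYCN as the genotype of both groups. The 3 Control libraries came from cells labelled Control, and the 3 DFMO libraries from cells kept at 250 µM DFMO for 4 days. DFMO (difluoromethylornithine) inhibits ornithine decarboxylase, the enzyme that opens polyamine synthesis, and the comparison asks what polyamine depletion does to the RNA of this line. All values come from 1 cell line, and nothing in the labels says whether the libraries of a group were separate cultures. The spread between these libraries may thus be technical. For gene levels and exon events, p-values rest in part on that spread, pooled with other genes or events. For introns, acceptors and donors, the variance came from a trend fitted over all events of the class. Their p-values thus do not measure an event's own spread. The reads of all events summed to between 77648922 and 103250467 per library, with a read counted once for each event it supports. Of 9 noradrenergic neuroblastoma markers, 9 were measured. Of the 5 fibroblast, 4 epithelial and 4 blood markers, 0 had an exon event with coverage in all libraries.

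In initiation, eIF2 brings the initiator tRNA to the small ribosomal subunit, eIF3 serves as the scaffold of the complex, and eIF4E with an eIF4G recruits it to the capped mRNA. eIF1, eIF1A and eIF5 govern the search for the start codon, eIF2B recharges eIF2 with GTP, and eIF5B joins the large subunit. In elongation, eEF1A delivers aminoacyl-tRNA, the eEF1B complex recharges it, and eEF2 moves the ribosome along. Polyamines bind RNA and ribosomes, and spermidine is the source of the hypusine residue of eIF5A, whose genes are not described here.

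The level of a gene was followed through junction reads, since the deposited table holds events and not gene counts. The exon-event level of a gene was the mean, over its exon events, of log2 of 1 plus the reads of the event after scaling each library to 1e+06 exon-event reads. A gene rose or fell when the limma adjusted p over all 9232 measured genes was below 0.05, whatever the size. A second level was computed in the same way from the reads of intron events, which include the reads that join the neighbouring exons. It covered 9817 genes and gave the value for the 10 factor genes that had no exon-event level. Levels and their differences below are on this log2 scale, an SE is that of the difference, and n = 3 libraries per group throughout. Exon events of a gene share its level and can share reads. Counts of its events without overlap between the groups are thus not independent results. The share of such events over all genes was not computed.

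Translation factor genes moved in both directions with DFMO, and the changes were small. Of 46 genes with an exon-event level, 18 rose (39.1%), 16 fell (34.8%) and 12 did not pass. Over all measured genes, 22.8% rose and 22.3% fell. The median difference was -0.0016 for the factor genes and 0.0020 for all genes, and the median size of the difference, whatever its sign, was 0.18 and 0.13. The median level of the factor genes was 4.14, against 2.65 for all genes, so they rest on more reads than most. Only EIF4G2 passed 1.5-fold, which 1.13% of all genes did in either direction. That count depends on the 1 added before the log, which shrinks differences at low levels. Of all genes, 62 rose and 42 fell past 1.5-fold, against 178 and 126 with 0.1 added and 10 and 8 with 5 added. With 0.1 added, EEF1B2 had -0.81 by exon events. By intron events, 21 of 55 factor genes rose and 22 fell, against 19.9% and 28.1% of all genes. Of 45 genes with both levels, 42 had the same sign in both, and 29 of the 30 that passed in both did. Without DFMO replicate 1, 16 genes rose and 10 fell by exon events.

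**Figure D1:**
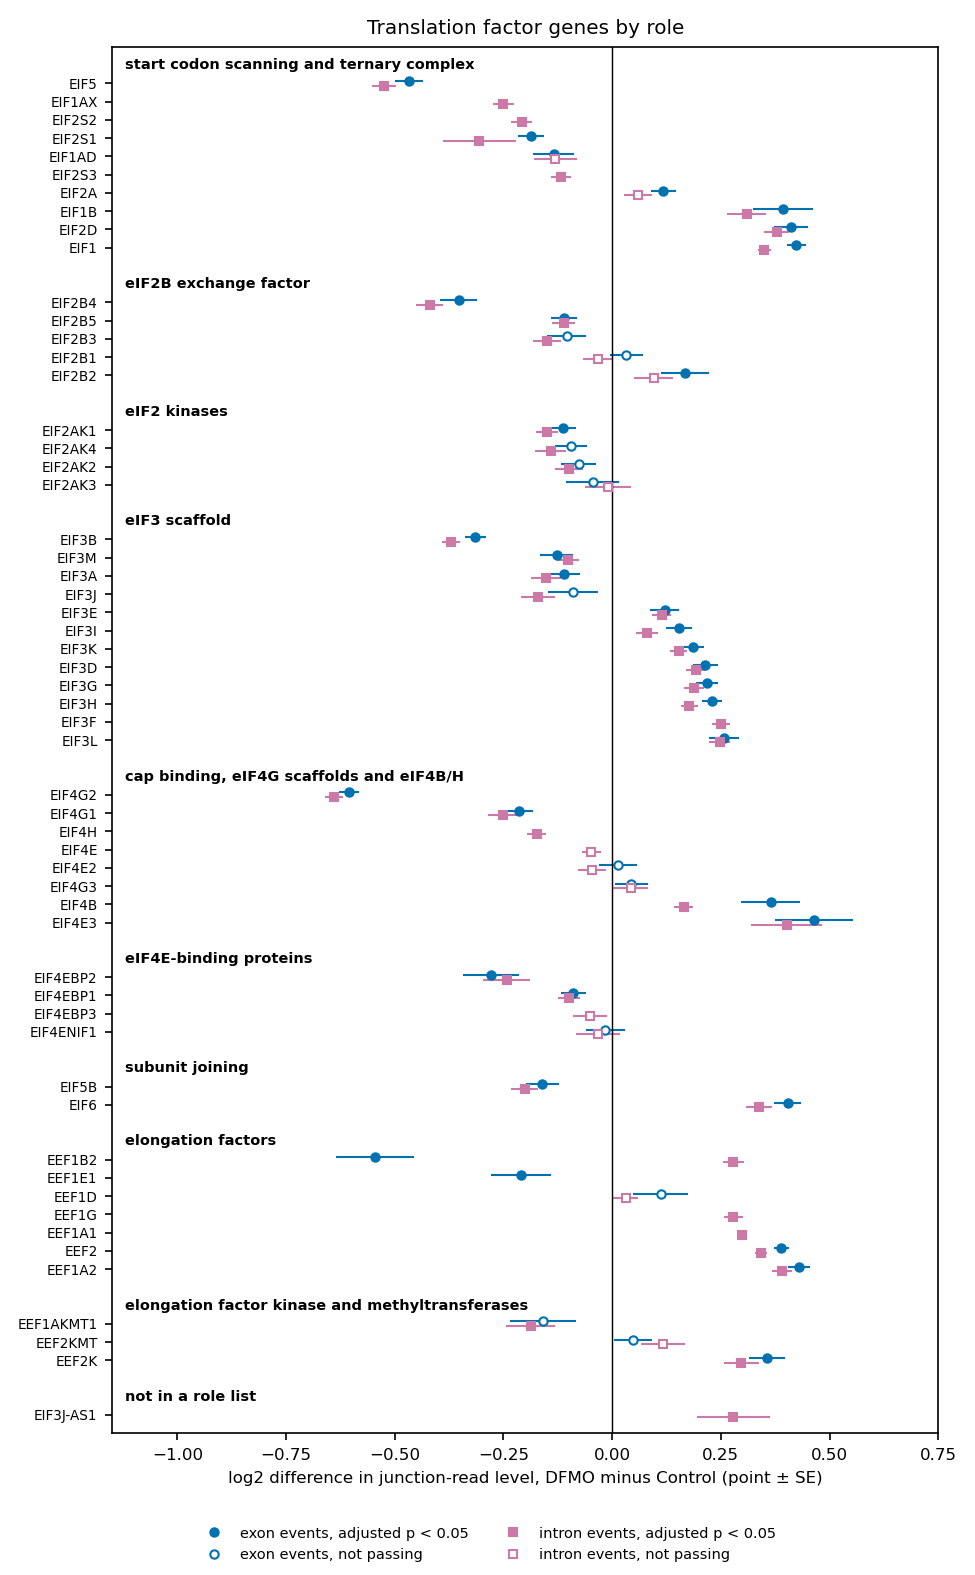
Difference in junction-read level (x axis, log2, DFMO minus Control) for each translation factor gene, grouped by role; circles are exon events, squares are intron events, bars are the SE, and filled symbols passed an adjusted p below 0.05. EIF4G2 lies farthest to the left at -0.61 by exon events, the eIF3 subunits split into a lower and a higher group, and EEF1B2 is the gene whose passing values lie on both sides of 0.

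Among factors that find the start codon and form the ternary complex, those of the scanning search split. EIF5, which makes eIF2 hydrolyse its GTP at the start codon, had levels of 5.17, 5.12 and 5.11 in Control and 4.65, 4.71 and 4.65 with DFMO. All DFMO libraries lay below all Control libraries, and EIF5 fell by 0.47 (SE 0.03, adjusted p = 2.2e-05). All 8 of its exon events were lower without overlap between the groups. EIF1, the factor that keeps the scanning complex open, moved the other way, from 7.27, 7.26 and 7.22 to 7.67, 7.68 and 7.67. EIF1 rose by 0.42 (SE 0.02, adjusted p = 9.5e-06), and its paralog EIF1B rose by 0.39. EIF2D, which can place initiator tRNA without eIF2, rose by 0.41 (SE 0.04, adjusted p = 1.0e-04), with 14 of its 15 exon events higher without overlap. EIF2A, another tRNA-binding factor outside the eIF2 complex, rose by 0.12, and by intron events it had 0.06 (adjusted p = 0.16).

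The 3 subunits of eIF2 itself were lower with DFMO. EIF2S1, which holds the serine that the stress kinases modify, had levels of 4.97, 5.02 and 4.94 in Control and 4.79, 4.79 and 4.79 with DFMO. The groups did not overlap, and EIF2S1 fell by 0.19 (SE 0.03, adjusted p = 1.3e-03). EIF2S2 and EIF2S3, measured by intron events only, fell by 0.21 and 0.12. EIF1AX, the X-linked gene of eIF1A, was also measured by intron events and fell by 0.25 (SE 0.02, adjusted p = 1.3e-04). EIF1AD, an eIF1A-related gene, fell by 0.13 (adjusted p = 0.042). Its call ended by intron events (-0.13, adjusted p = 0.057), without the variance trend (adjusted p = 0.059), and without Control replicate 3 (-0.09) or any 1 of the DFMO replicates (-0.11 to -0.15).

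Of the 5 subunits of eIF2B, the exchange factor that recharges eIF2, 2 fell and 1 rose. EIF2B4, the delta subunit, had levels of 3.36, 3.49 and 3.49 in Control and 3.08, 3.09 and 3.11 with DFMO. It fell without overlap by 0.35 (SE 0.04, adjusted p = 3.2e-04), and 9 of its 10 exon events were lower without overlap. EIF2B5, the catalytic epsilon subunit, fell by 0.11 (adjusted p = 0.017). That call ended without Control replicate 2 (-0.11) and without DFMO replicate 2 (-0.10). EIF2B2, the beta subunit, rose by 0.17 (adjusted p = 0.038) with groups that overlapped. It did not pass by intron events (0.10) or without the variance trend (adjusted p = 0.058), and its call ended when Control replicates 2 and 3 and DFMO replicates 1 and 2 were left out in turn (0.13 to 0.15). EIF2B3 had -0.10 by exon events (adjusted p = 0.087) and -0.15 by intron events (adjusted p = 6.1e-03), and EIF2B1 had 0.03 and -0.03.

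None of the 4 eIF2 kinases rose. EIF2AK1, the heme-regulated kinase, went from 4.75, 4.76 and 4.78 to 4.62, 4.67 and 4.66, and it fell by 0.11 (adjusted p = 0.013). Its call ended without DFMO replicate 1 (-0.10, adjusted p = 0.051). EIF2AK4, known as GCN2 and activated by uncharged tRNA, had -0.09 (adjusted p = 0.063), and EIF2AK2, the double-stranded RNA kinase PKR, had -0.08 (adjusted p = 0.15). By intron events both fell, by 0.14 and 0.10 (adjusted p = 0.013 and 0.038). EIF2AK3, the kinase of the endoplasmic reticulum, had -0.05 (adjusted p = 0.58).

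The subunits of eIF3, the scaffold on which the initiation complex assembles, separated into a larger set that rose and a smaller one that fell. By exon events, 7 of 11 subunits rose, 3 fell and 1 did not pass, and by intron events, 8 of 12 rose and 4 fell. EIF3B, a core subunit, fell the most, from 6.10, 6.08 and 6.09 to 5.76, 5.76 and 5.79. The DFMO libraries were all below the Control libraries, with a fall of 0.31 (SE 0.02, adjusted p = 4.1e-05), and 16 of 17 exon events were lower without overlap. EIF3A, the largest core subunit, fell by 0.11 (adjusted p = 0.032) and EIF3M by 0.13 (adjusted p = 0.022). Both calls were fragile. EIF3A did not pass without Control replicate 2 or 3 or any 1 of the DFMO replicates (-0.09 to -0.12), nor with a replicate block (adjusted p = 0.056) or without the variance trend (adjusted p = 0.060). EIF3M did not pass without Control replicate 1 or DFMO replicate 1 or 2 (-0.10 to -0.11), nor with nearly constitutive exons only (-0.08). EIF3J, the loosely bound subunit, had -0.09 by exon events (adjusted p = 0.24) and fell by 0.17 by intron events (adjusted p = 8.4e-03).

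The subunits that rose did so by similar amounts. EIF3L had levels of 5.37, 5.33 and 5.45 in Control and 5.64, 5.66 and 5.63 with DFMO, a rise of 0.26 (SE 0.03, adjusted p = 5.6e-04). EIF3H went from 6.05, 6.06 and 6.04 to 6.29, 6.26 and 6.29 and rose by 0.23 (SE 0.02, adjusted p = 1.4e-04), with all 11 exon events higher without overlap. EIF3G, EIF3D, EIF3K and EIF3I rose by 0.22, 0.21, 0.19 and 0.15, and EIF3F rose by 0.25 by intron events (SE 0.02, adjusted p = 5.9e-05). In each of these genes the lowest DFMO library lay above the highest Control library. EIF3E rose by 0.12 (adjusted p = 0.019), and its call ended without Control replicate 1 (0.10) and without DFMO replicate 1 or 2 (0.11 and 0.10), as well as without the variance trend (adjusted p = 0.052).

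**Figure D2:**
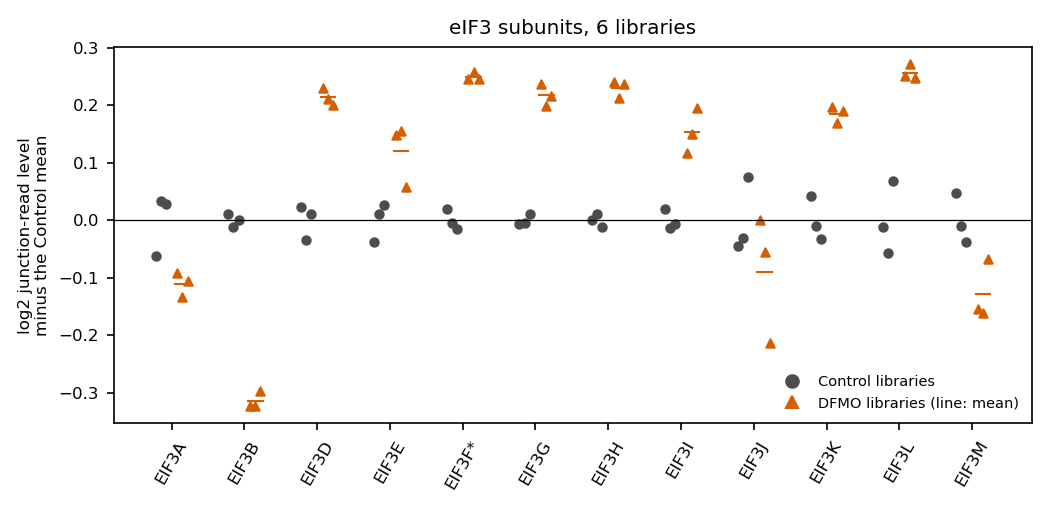
Junction-read level of 12 eIF3 subunits in each library (y axis, log2, minus the mean of the Control libraries of that gene); circles are Control libraries, triangles DFMO libraries, and the line is the DFMO mean. The asterisk marks EIF3F, shown by intron events. EIF3B sits lowest, 3 triangles near -0.3, and EIF3D, EIF3F, EIF3G, EIF3H and EIF3L sit above 0.2 in the mean.

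Of the cap-binding group, 2 of the 3 eIF4G scaffolds fell and cap-binding eIF4E itself did not pass. EIF4G2, also known as DAP5, resembles the middle and end of eIF4G but lacks the part that binds eIF4E. Its levels were 7.02, 6.98 and 6.98 in Control and 6.39, 6.40 and 6.37 with DFMO. No DFMO library came within 0.5 of a Control library. EIF4G2 fell by 0.61 (SE 0.02, adjusted p = 3.5e-06), a 1.52-fold lower level, and all 20 of its exon events were lower without overlap, by 0.51 to 0.64. By intron events the fall was 0.64. EIF4G1, the main scaffold between cap, helicase and eIF3, went from 5.34, 5.42 and 5.42 to 5.18, 5.17 and 5.19. It fell by 0.21 (SE 0.03, adjusted p = 7.9e-04), with 28 of 32 exon events lower without overlap. EIF4G3, a further paralog, had 0.04 (adjusted p = 0.38).

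EIF4E, which grips the cap, had intron-event levels of 4.67, 4.68 and 4.69 in Control and 4.65, 4.62 and 4.62 with DFMO. The difference of -0.05 did not pass (adjusted p = 0.11), though its groups did not overlap. EIF4E3, a small cap-binding relative, had levels of 1.54, 1.36 and 1.73 in Control and 1.99, 1.95 and 2.08 with DFMO. The groups did not overlap, and it rose by 0.46 (SE 0.09, adjusted p = 3.2e-03). EIF4E2, a cap-binding repressor, had 0.01 (adjusted p = 0.83).

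EIF4B, an activator of the eIF4A helicase, rose by 0.36 from its only exon event (adjusted p = 2.7e-03) and by 0.16 over 14 intron events (adjusted p = 5.1e-04). Its relative EIF4H fell by 0.17 by intron events (SE 0.02, adjusted p = 4.4e-04). Of the proteins that hold eIF4E away from eIF4G, EIF4EBP2 fell from 3.96, 3.74 and 3.94 to 3.66, 3.51 and 3.62 (difference -0.28, SE 0.06, adjusted p = 8.0e-03), on 1 exon event. EIF4EBP1 fell by 0.09 (adjusted p = 0.037), also on 1 exon event, and that call ended without any 1 library other than Control replicate 3 (-0.07 to -0.10) and without the variance trend (adjusted p = 0.10). EIF4EBP3 had -0.05 by intron events (adjusted p = 0.33), and EIF4ENIF1, which shuttles eIF4E into the nucleus, had -0.02 (adjusted p = 0.80).

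At subunit joining, both genes passed and in opposite directions. EIF6, which keeps the large subunit free until it is needed, had levels of 5.66, 5.63 and 5.68 in Control and 6.07, 6.01 and 6.10 with DFMO. It rose without overlap by 0.40 (SE 0.03, adjusted p = 4.1e-05), and all 5 of its exon events were higher without overlap. EIF5B, the GTPase that joins the subunits, fell by 0.16 (SE 0.04, adjusted p = 9.6e-03), with 12 of 26 exon events lower without overlap.

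The main elongation factors rose. EEF2, the translocase, had levels of 8.96, 8.97 and 8.97 in Control and 9.34, 9.37 and 9.36 with DFMO. The groups stood far apart for so small a spread, and EEF2 rose by 0.39 (SE 0.02, adjusted p = 3.8e-06), with all 13 exon events higher without overlap. EEF1A1, the general eEF1A, was measured by 6 intron events, at 10.44, 10.43 and 10.43 in Control and 10.73, 10.73 and 10.73 with DFMO. It rose by 0.30 (SE 0.01, adjusted p = 3.4e-06). EEF1A2, the form of neurons and muscle, went from 6.93, 6.98 and 6.96 to 7.36, 7.42 and 7.38 and rose by 0.43 (SE 0.03, adjusted p = 1.4e-05). Since eEF1A has many processed copies in the genome, how the authors' counting placed reads shared with them could affect its value.

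In the eEF1B exchange complex, EEF1G rose by 0.28 by intron events (SE 0.02, adjusted p = 4.3e-05), and EEF1D had 0.11 by exon events (adjusted p = 0.19) and 0.03 by intron events. EEF1B2, the exchange subunit proper, depended on the events used. Its 2 exon events had levels of 1.90, 1.76 and 1.60 in Control and 1.33, 1.09 and 1.20 with DFMO, a fall of 0.55 (SE 0.09, adjusted p = 1.5e-03). Its 6 intron events, far better covered, had 7.11, 7.04 and 7.04 in Control and 7.36, 7.35 and 7.32 with DFMO, a rise of 0.28 (SE 0.02, adjusted p = 7.4e-05). EEF1B2 is counted among the 16 genes that fell, a count made by exon events. Since the intron events differ, no direction is concluded for EEF1B2. EEF1E1, a scaffold of the multi-synthetase complex related to eEF1B, fell by 0.21 (adjusted p = 0.035), and its call ended when Control replicates 1 and 2 and DFMO replicates 1 and 3 were left out in turn (-0.13 to -0.21) and without the variance trend (adjusted p = 0.054).

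EEF2K, the kinase that slows elongation by phosphorylating eEF2, rose along with its substrate. Its levels were 2.55, 2.62 and 2.60 in Control and 2.99, 2.96 and 2.89 with DFMO. The difference was 0.36 (SE 0.04, adjusted p = 2.6e-04), and 19 of 22 exon events were higher without overlap. EEF2KMT, which methylates eEF2, had 0.05 (adjusted p = 0.41), and EEF1AKMT1, which methylates eEF1A, had -0.16 (adjusted p = 0.12) and fell by 0.19 by intron events (adjusted p = 0.026). The 1 intron event listed for EIF3J-AS1 was 0.28 higher with DFMO (SE 0.08, adjusted p = 0.027), and without the strand of the counting its reads cannot be assigned to that RNA.

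Genes that work beside these factors were taken from 6 lists. Of 48 listed genes, 40 had an exon-event level, of which 11 rose, 4 fell and 25 did not pass, with a median difference of 0.05. Over all genes, 22.8% rose and 22.3% fell by exon events, and 19.9% rose and 28.1% fell by intron events. Of the poly(A)-binding proteins and their partners, 4 of 7 rose and 0 fell by exon events, and 4 of 8 rose and 1 fell by intron events. PABPC1, the main poly(A)-binding protein, rose by 0.16, PABPC4 by 0.26, PAIP2, which competes for PABP, by 0.27, and LARP1, a repressor of pyrimidine-started mRNAs, by 0.18. Of the signalling genes, 4 of 15 rose and 0 fell by exon events, and 4 of 17 rose and 2 fell by intron events. IMPACT, an inhibitor of GCN2, had levels of 2.35, 2.25 and 2.35 in Control and 2.97, 2.96 and 3.00 with DFMO. The groups did not overlap, and it rose by 0.66 (SE 0.04, adjusted p = 1.8e-05), the only gene of these lists past 1.5-fold. MTOR had -0.01 (adjusted p = 0.89). Of the helicase and recycling list, DHX29 rose by 0.19 and DDX3X, a scanning helicase, fell by 0.15. By intron events, 0 of 5 genes of that list rose and 3 fell, and of the termination list 0 of 4 rose and 3 fell. Of the mitochondrial list, 1 of 7 rose and 2 fell by either measure. The release factor gene ETF1 fell by 0.19, and of the mitochondrial factors GFM2 rose by 0.20 while TSFM and GFM1 fell by 0.36 and 0.14.

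Many mRNAs of the translation machinery begin with a cytosine and an unbroken run of pyrimidines, the 5′ TOP motif, through which mTOR and LARP1 govern their translation. Of 9 factor genes listed as having such an mRNA, 4 of the 6 with an exon-event level rose and 1, EEF1B2, fell. By intron events 8 of 9 rose and 0 fell. The shares over all genes were 22.8% and 22.3% by exon events and 19.9% and 28.1% by intron events. The windows below show 10 bases before and 15 bases from the RefSeq start (GRCh38.p14), with the first 5 transcribed bases in capitals, for genes that open the motif and for 3 that do not.
EEF2 (chr19:3985449-3985473, minus strand, level difference 0.39): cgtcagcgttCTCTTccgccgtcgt
EEF1A1 (chr6:73521018-73521042, minus strand, 0.30 by intron events): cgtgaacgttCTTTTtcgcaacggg
EIF2D (chr1:206612451-206612475, minus strand, 0.41): ccagccgggcCCTTTtcgcggccgg
EIF4B (chr12:53006446-53006470, plus strand, 0.36): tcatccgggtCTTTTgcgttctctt
EIF3F (chr11:7987327-7987351, plus strand, 0.25 by intron events): cttccgcctcCTTCTttctcgacaa
EIF3M (chr11:32583821-32583845, plus strand, -0.13): gcccagttccCTTTTccggtcggcg
EIF2S3 (chrX:24054946-24054970, plus strand, -0.12 by intron events): gatttccttcCTCTTttggcaacat
EIF4G2 (chr11:10807982-10808006, minus strand, -0.61): tgtcggaagcACTTCcctaacttgc
EIF5 (chr14:103334227-103334251, plus strand, -0.47): ggcgttgttcAGTCAgagcgagaac
EIF1 (chr17:41688875-41688899, plus strand, 0.42): ccgcccctctGCCCCagtcactgag

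A start was counted as opening the motif when its first base was C and the next 4 were C or T, read on the transcribed strand only; this look was chosen after the levels had been seen. RefSeq starts were matched for 43 factor genes. The motif opened 10 of them (23.3%), against 5.73% of 7891 measured genes and 4.04% of 27305 starts. Of these 10 genes, 8 rose (EEF2, EEF1A1, EIF2A, EIF2D, EIF3D, EIF3F, EIF3K and EIF4B) and 2 fell (EIF3M and EIF2S3), with a median difference of 0.23. The other factor genes had a median of -0.09. They include EEF1G and EEF1B2, both listed above as having a 5′ TOP mRNA, and EEF1B2 enters by its exon-event fall. EEF1D, EIF3E and EIF3H of that list had no matched start. The split is thus by the RefSeq start and not by known TOP mRNAs. Over all 392 measured genes with such a start the median was 0.02, with 30.6% that rose and 20.9% that fell. EIF1 and EIF6 rose without it, so it does not separate the 2 directions. The sequence CACGTG, the E-box that MYC proteins bind and a palindrome that reads the same on both strands, lay in the 300 bases around the start of 11 factor genes (25.6%), against 10.9% of measured genes and 7.43% of starts. Of these 11, 5 rose, 2 fell and 4 did not pass, with a median difference of -0.05. Over all 794 measured genes with the sequence, 21.9% rose and 25.6% fell, and the median was -0.0025. A match of letters is a description and no evidence of binding.

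**Figure D3:**
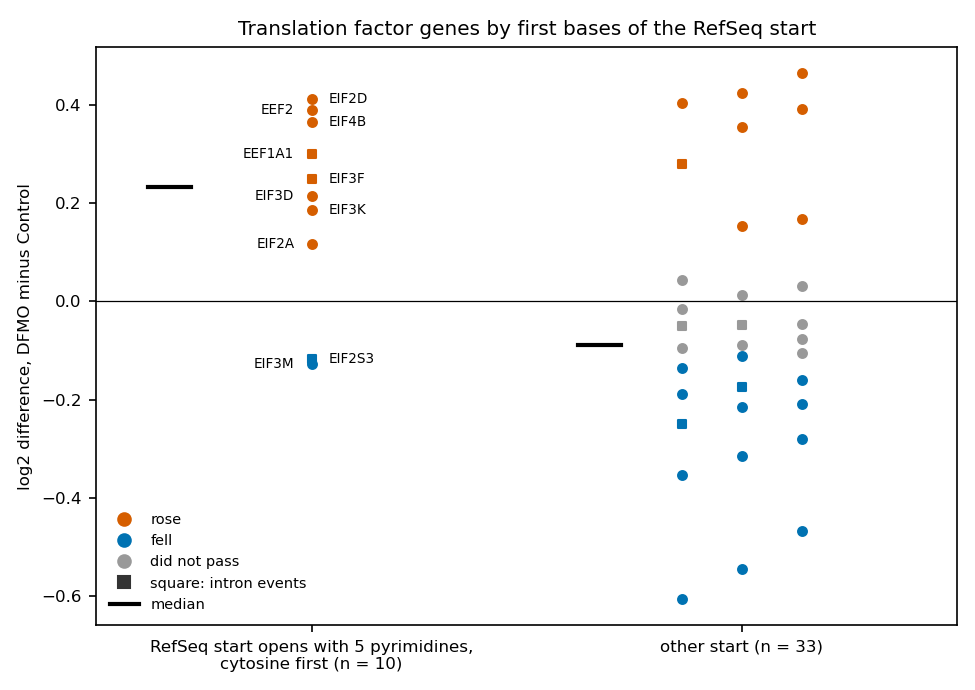
Difference in junction-read level (y axis, log2, DFMO minus Control) of 43 translation factor genes, split by whether the RefSeq start opens with a cytosine and 4 further pyrimidines; circles are exon events, squares intron events, colours the verdict of the test, and the bar at the left of each set its median. The set with the motif has its median at 0.23 and the other at -0.09, and both hold genes on each side of 0.

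Splicing differences of the tested factor-gene events were similar in size to those of all tested events. First forms of acceptor and donor sets (385) follow from the other forms and were left out, which left 1783 events. Of these, 1072 had a mean percent under 5 and 652 over 95, and the remaining 59, in 28 genes, were tested: 25 exons, 11 introns, 17 acceptors and 6 donors. A call needed an adjusted p below 0.05 and a difference of at least 10 points. Called were 2 of the 59 events, 0 of them exons, 0 introns, 2 acceptors and 0 donors, against 3.45% of all tested exons, 3.8% of introns, 1.23% of acceptors and 2.21% of donors. At any size, 7 of the 59 (11.9%) passed the adjusted p, against 5.48% of all tested events. An unadjusted limma p below 0.05 was reached by 18 (8 exons, 2 introns, 4 acceptors and 4 donors), or 30.5%, against 19.1% of all tested events. A quasi-binomial test called 0 of the 59. These 7 lie in 5 genes, since EIF4B and EIF2D each give 2 forms of 1 choice. The median difference was 0.80 points for the factor genes and 0.60 for all events, and its median size, whatever the sign, was 3.38 and 3.35.

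EIF4B uses 1 of 2 donors 15 nt apart, an in-frame choice at the end of a coding exon. The sequences show the exon end up to the donor, with the 15 extra bases of the long form in capitals, joined to the first 15 bases of the next exon. They were read from GENCODE 29 transcripts, plus strand, with the exon part at chr12:53034695-53034709 and chr12:53034695-53034724.
EIF4B short donor: ccacatctagcagaaatgcacgaaggagag
EIF4B long donor: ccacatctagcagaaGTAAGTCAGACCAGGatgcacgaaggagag
Use of the short donor was 85.5%, 82.6% and 76.4% in Control and 89.1%, 92.7% and 90.7% with DFMO. All DFMO libraries were higher than all Control libraries. The means were 81.5% ± 4.65 (SD) and 90.8% ± 1.81, a rise of 9.34 points (adjusted p = 1.6e-04) that falls short of the 10 points for a call. The listed reads of the long donor were 46, 49 and 83 of 454, 395 and 480 in Control. With DFMO they were 44, 29 and 36 of 590, 583 and 551. These reads give lower shares of the long donor than the deposited percents do. As a share of listed reads, a setting added once the values were known, the short donor rose by 7.11 points (adjusted p = 7.4e-04). The difference passed the adjusted p in every alternative but the fit without the variance trend (adjusted p = 0.36). With 1 library left out it ran from 6.79 to 11.3 points, and it was past 10 points without Control replicate 1 (11.3) and without DFMO replicate 1 (10.2).

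EIF2D held the 2 called events, which are 2 forms of 1 choice between acceptors 3 nt apart. The sequences show the last 15 bases of the exon before and the first bases after, minus strand, with the 3 bases that only the upstream acceptor keeps in capitals; the exon part lies at chr1:206591828-206591845. The upstream form was read from a GENCODE transcript. The downstream form is in no GENCODE 29 transcript and was made by leaving out those 3 bases.
EIF2D upstream acceptor: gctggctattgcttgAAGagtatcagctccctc
EIF2D downstream acceptor: gctggctattgcttgagtatcagctccctc
Use of the downstream acceptor was deposited as 0%, 31.1% and 16.4% in Control and 34.1%, 30.2% and 49.8% with DFMO, so the groups overlapped. The difference was 22.2 points (adjusted p = 0.035). The reads listed for it were 0, 2 and 1 of 175, 157 and 180 in Control and 5, 3 and 8 of 344, 246 and 290 with DFMO. As a share of listed reads this is a difference of 1.20 points. On the listed reads, a setting added once the values were known, the event did not pass (adjusted p = 0.65). The sources used here do not give how the deposited percent weights the reads of each site. The call also ended with an offset of 0.1 or 1, on the percent scale, without the variance trend, with a quasi-binomial test and without any 1 of the DFMO replicates (16.3 to 26.1 points).

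Among the smaller differences, retention of a 3458-nt intron of EIF2S3, the gamma subunit of eIF2 (chrX:24073264-24076721), was 4.72%, 4.03% and 5.03% in Control and 9.49%, 8.90% and 6.01% with DFMO. All DFMO libraries were higher, by 3.54 points in the mean (adjusted p = 3.8e-03), while the level of EIF2S3 fell by 0.12. The intron no longer passed without the variance trend (adjusted p = 0.25) or without DFMO replicate 1 (2.86 points, adjusted p = 0.071). It was also dropped in the setting limited to introns with balanced ends. Its ends had 54 and 103 reads in DFMO replicate 1. Inclusion of a 78-nt coding exon of EIF3K, a small peripheral subunit (chr19:38632601-38632678, plus strand), was 90.1%, 90.5% and 90.5% in Control and 92.3%, 93.6% and 92.4% with DFMO. It rose by 2.34 points (adjusted p = 0.028), on 2643 to 3709 reads per library, and its length keeps the reading frame. Its bases are printed because the exon is the one passing exon of the eIF3 genes.
EIF3K exon: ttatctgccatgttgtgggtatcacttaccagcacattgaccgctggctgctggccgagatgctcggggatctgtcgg
A 169-nt exon form of EIF6 (chr20:35280654-35280822), which matches no GENCODE 29 exon at both ends, was included at 84.1%, 83.7% and 85.1% in Control and 88.0%, 87.2% and 89.1% with DFMO. It rose by 3.74 points without overlap (adjusted p = 0.029). Neither the EIF3K nor the EIF6 exon passed without the variance trend (adjusted p = 0.41 and 0.39) or when events of any mean percent were tested (adjusted p = 0.12 and 0.14), nor without most single libraries. Without any 1 library other than DFMO replicate 3, the EIF3K exon had 1.93 to 2.58 points, and without any 1 other than DFMO replicate 2, the EIF6 exon had 3.25 to 4.13 points.

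**Figure D4:**
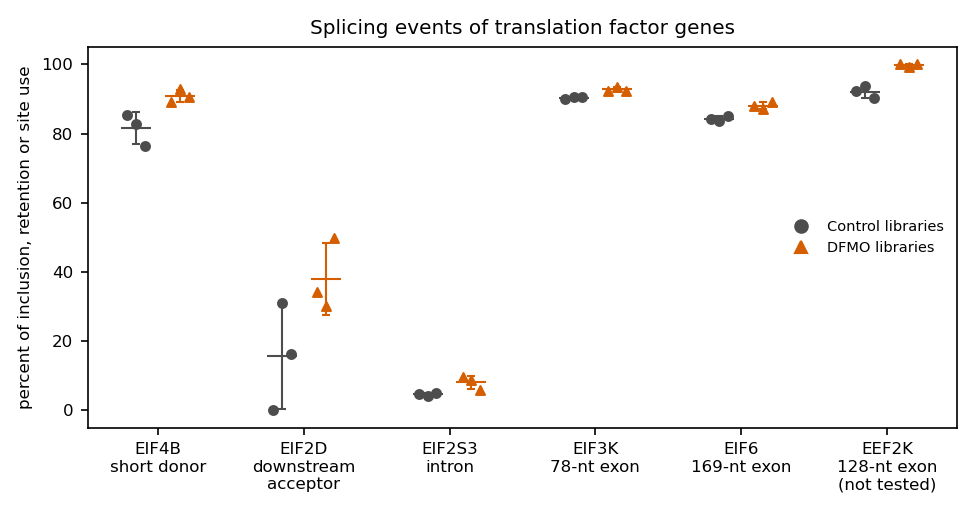
Percent of exon inclusion, intron retention or splice site use (y axis) in each library for 6 events of translation factor genes; circles are Control libraries, triangles DFMO libraries, and bars the mean ± SD (n = 3). The EIF2D percents overlap between the groups, with a Control library at 0% and another at 31.1%, while the other 5 events do not overlap.

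The largest differences that did not pass were wider than these but noisier. A 102-nt exon of EEF2KMT (chr16:5091794-5091895) had 35.8%, 28.5% and 20.8% in Control and 52.1%, 55.7% and 28.7% with DFMO, 17.1 points apart (adjusted p = 0.16). The reads at its 2 junctions were far from equal, at 3 and 108 in Control replicate 1, and without DFMO replicate 3 it passed at 25.5 points (adjusted p = 0.027). A 1233-nt intron of EIF2AK4 differed by 10.7 points (adjusted p = 0.23), a 3-nt acceptor choice of EIF4G3 by 10.4 (adjusted p = 0.38) and a donor of EIF1AD by -11.2 (adjusted p = 0.28). The ends of the EIF2AK4 intron had 18 and 1 reads in Control replicate 1. That intron was dropped in the setting limited to introns with balanced ends. An intron of EEF1B2 of 274 nt was listed as retained at 83.3%, 79.3% and 86.3% in Control and 80.9%, 79.3% and 77.5% with DFMO (adjusted p = 0.080). Its ends were unbalanced, with 73 and 636 reads in Control replicate 1.

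Most events of the factor genes sat near 0% or 100% and were described, not tested. They were 413 exons over 95%, 87 exons under 5%, 566 introns under 5%, 406 acceptors and 252 donors. Their median difference was 0 points, and 15 of 1724 moved by 2 points or more. The widest lay in EEF2K, chosen after its values were seen. A 128-nt exon (chr16:22257643-22257770) had 92.3%, 93.7% and 90.2% in Control and 100%, 99.3% and 100% with DFMO, a difference of 7.70 points (adjusted p = 0.010 in the fit with no filter on the mean percent). In the same gene, a donor form of 132 nt had 3.65%, 6.42% and 6.38% in Control and 1.16%, 1.26% and 0.76% with DFMO, and a tested 38-nt exon had 86.2%, 95.3% and 92.1% against 97.5%, 98.2% and 97.1% (adjusted p = 0.13). In these 3 events, picked from 54 of EEF2K, the groups did not overlap, and the share of such events was not computed. The other tested EEF2K event, a 163-nt intron, did overlap. It had 13.2%, 6.43% and 9.52% in Control and 7.53%, 2.89% and 6.92% with DFMO (adjusted p = 0.25). An 87-nt exon of EIF4G1 (chr3:184316132-184316218) had 94.1%, 94.7% and 94.4% in Control and 98.3%, 97.8% and 97.7% with DFMO, 3.56 points higher (adjusted p = 0.014 in that fit). That fit also passed an exon of EIF4E3 and a donor form of EIF4H with differences of 0 points (adjusted p = 0.023 and 0.031). Near 0% or 100%, passing it does not by itself show a difference.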

How the data were processed

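The authors deposited a table with a percent of inclusion, retention or site use for each splicing event and library, beside a quality text with junction read numbers. Per the submitters' processing notes the build was GRCh38. An aligner or quantifier is not named in them. The table held 721551 events, 1340 of them without a gene symbol. The percents of each event were compared as log2 of (inclusion reads + 0.5)/(exclusion reads + 0.5) with limma 3.58.1 in R 4.3.3. The inclusion and exclusion reads were those whose share gives the deposited percent, checked to within 0.5 points. The listed junction reads can differ from them, and percents from listed reads were tested only in the setting added for them. The fit used robust empirical Bayes with a variance trend, for events with a mean percent of 5 to 95. Benjamini-Hochberg adjustment was made within each event class. Junction-read levels were tested with limma with a mean-variance trend over all genes. All tests were two-sided and were tested on simulated data. Annotation came from GENCODE 29 and starts from RefSeq. The members, gene lists and tests were chosen with earlier results of these data known. Genes named are those past 1.5-fold, the 6 highest and lowest, and each role's extremes, and the other genes of each role are given beside them. Events named are the called ones, those past the adjusted p and the largest that did not pass in each class. Alternatives covered offsets, scales, filters, other tests, a replicate block and leaving out each library.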

Additional observations from a re-analysis of the deposited data

How the results depend on the processing

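The counts of called events (main: 1 higher and 1 lower, both of EIF2D) became 0 and 0 with an offset of 0.1 or 1, on the percent scale, without the variance trend, with a quasi-binomial test and on the listed junction reads, and 5 and 2 with no size threshold. With 1 library left out they ran from 0 to 2 in both directions. The counts of genes (main: 18 rose, 16 fell) became 0 and 1 at 1.5-fold and ran from 16 to 18 and from 10 to 14 with 1 library left out. Replicate numbers did not pair the libraries (correlations of same-numbered libraries -0.02 to 0.01), and a replicate block gave 1 and 1 called events and 18 and 15 genes, EIF3A being the call lost. Of the 34 genes that passed, 23 kept their sign and passed in all 14 alternatives besides the 1.5-fold threshold. Signs changed by intron events for EEF1B2 (0.28), EIF2B1 (-0.033) and EIF4E2 (-0.046). With 1 library left out, EIF4E2 ran from -0.017 to 0.054 and EIF4ENIF1 from -0.042 to 0.017. The causes were not tested. For introns, acceptors and donors, the EIF2D, EIF4B and EIF2S3 events among them, the fit took the variance from the trend alone. Depth limits events on few reads. For the downstream EIF2D acceptor, 0 to 8 reads per library were listed, although its event had 157 to 344.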
